A study of Mus musculus with 9 samples.

Results

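The 34 genes described here are heat shock genes of the cytosol and mitochondria, with their co-chaperones and the factors Hsf1 and Hsf2, measured by RNA sequencing of pancreatic islets, the hormone-secreting cell clusters of the pancreas. They were listed by name, and all 34 were found among the 56941 gene rows and were among the 18548 genes that passed a filter on low counts. The islets came from wild-type male c57bl6j mice, aged 15 weeks when their diets began, and were taken after 9 months. Of the libraries, 3 were from the low fat control diet (LFD, 10% fat), 2 from the high fat diet (HFD, 60% fat) and 4 from the ketogenic diet (KD, 89.9% fat), and all the groups shared strain, sex and genotype. The list was drawn up with earlier results of these counts known, so the tests below describe its genes and are not independent support for any pattern among them.

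Heat shock proteins are molecular chaperones that hold or refold other proteins. Some, such as Hspa8 and Hsp90ab1, are made at all times, while others, such as Hspa1a and Hspb1, are switched on when unfolded proteins accumulate. The factor Hsf1 then leaves its chaperone partners, assembles into trimers and binds heat shock elements, arrays of the unit GAA in alternating orientation. For the contrast between inducible and constitutive chaperones, the genes were divided by known role into 13 stress-inducible genes, 7 constitutive chaperones, 4 co-chaperones of the Hsp90 machinery, 3 mitochondrial chaperones, 5 other family members and 2 heat shock factors. The name of the group does not cover all of them. Serpinh1 and Hspa13 act in the endoplasmic reticulum, Hsf1 and Hsf2 are transcription factors, and Ubb encodes ubiquitin.

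Promoters of 6 of the genes are shown, all of them with a match to the motifs below. They are 3 inducible genes with large differences between diets, Dnaja1 as the gene placed in the constitutive set that also passed the test, Hspe1 and Dnajb6. Hspe1 holds the fullest array, and Dnajb6 holds an array and has values in a narrow range. Each is the 250 bases before the annotated start, read 5′ to 3′ on the strand of the gene, from RefSeq on GRCm38.p6. That build is not the one named in the submitters' processing notes, so the coordinates belong to these sequences and not to the counts. Capitals mark matches to GAANNTTC, TTCNNGAA or the longer arrays GAANNTTCNNGAA and TTCNNGAANNTTC, where N is any base. The positions are chr17:34972157-34972406 (minus strand) for Hspa1a, chr17:34959239-34959488 (minus strand) for Hspa1b, chr5:135887669-135887918 (plus strand) for Hspb1, chr4:40722218-40722467 (plus strand) for Dnaja1, chr1:55087898-55088147 (plus strand) for Hspe1 and chr5:29735648-29735897 (plus strand) for Dnajb6.
Hspa1a: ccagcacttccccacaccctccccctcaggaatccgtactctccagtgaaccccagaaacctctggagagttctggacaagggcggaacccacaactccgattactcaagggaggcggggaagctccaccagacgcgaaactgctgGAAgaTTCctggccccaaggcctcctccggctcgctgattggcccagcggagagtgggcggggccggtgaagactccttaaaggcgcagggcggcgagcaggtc
Hspa1b: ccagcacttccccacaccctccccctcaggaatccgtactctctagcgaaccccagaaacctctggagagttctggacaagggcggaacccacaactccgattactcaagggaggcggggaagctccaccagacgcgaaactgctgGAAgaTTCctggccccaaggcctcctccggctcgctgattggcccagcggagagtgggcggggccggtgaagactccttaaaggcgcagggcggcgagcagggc
Hspb1: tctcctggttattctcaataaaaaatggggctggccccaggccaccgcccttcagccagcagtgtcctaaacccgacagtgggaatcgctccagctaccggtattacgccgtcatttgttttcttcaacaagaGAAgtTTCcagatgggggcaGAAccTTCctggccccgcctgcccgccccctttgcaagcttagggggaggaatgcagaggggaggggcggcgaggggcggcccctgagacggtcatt
Dnaja1: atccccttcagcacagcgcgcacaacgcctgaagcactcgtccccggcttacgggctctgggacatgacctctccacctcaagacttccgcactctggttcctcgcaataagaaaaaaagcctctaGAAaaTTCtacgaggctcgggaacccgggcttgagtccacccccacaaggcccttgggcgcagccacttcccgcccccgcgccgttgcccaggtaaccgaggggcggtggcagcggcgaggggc
Hspe1: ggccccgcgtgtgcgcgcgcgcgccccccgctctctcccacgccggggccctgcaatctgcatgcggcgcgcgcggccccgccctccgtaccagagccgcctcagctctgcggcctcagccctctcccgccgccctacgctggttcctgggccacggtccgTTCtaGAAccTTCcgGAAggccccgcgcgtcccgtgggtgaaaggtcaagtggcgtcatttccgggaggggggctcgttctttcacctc
Dnajb6: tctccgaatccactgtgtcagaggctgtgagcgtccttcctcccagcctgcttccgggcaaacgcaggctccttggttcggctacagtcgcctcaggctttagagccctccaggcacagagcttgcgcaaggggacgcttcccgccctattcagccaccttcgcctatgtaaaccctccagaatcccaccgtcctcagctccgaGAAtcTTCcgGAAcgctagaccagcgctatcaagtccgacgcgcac

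The 2 Hsp70 genes Hspa1a and Hspa1b have nearly the same promoter, differing at 3 of 250 bases, with 1 GAANNTTC match from 104 to 97 bases before the start in each. In Hspb1 there were 2 such matches, 117 to 110 and 97 to 90 bases before the start, and in Dnaja1 there was 1, at 124 to 117. Hspe1 shares a bidirectional promoter with its partner Hspd1, whose window overlaps its own by 285 of 300 bases, and holds 3 overlapping pairs between 89 and 72 bases before the start. A promoter was matched for 27 of the 34 genes, and not for Hsf1, Hsp90aa1, Hspa8, Cryab, Hspa13, Hspa9 and Hsp90ab1. Of the 27, 11 (40.7%) held at least 1 of the paired motifs, compared with 3932 of 27025 genes (14.5%) over all RefSeq promoters of the same length. Each paired motif is its own reverse complement, so both strands were read, and each longer array contains both kinds of pair. The longer arrays were found in Dnajb6, Hspd1 and Hspe1 (11.1% of the 27), compared with 0.514% of all genes. Since Hspd1 and Hspe1 share their array, and the promoters of Hspa1a and Hspa1b are nearly the same, these shares do not count independent promoters. By set, the pair was found in 5 of 11 inducible genes (Hspa1a, Hspa1b, Hsph1, Hspb1 and Dnajb4), 2 of 5 constitutive, 1 of 4 co-chaperone, 2 of 2 mitochondrial and 1 of 4 other family genes, and in no window of Hsf2. Of the genes called lower on KD below, Dnajb1, Chordc1, Serpinh1 and Hspa4l had no match in any window, and Hsp90aa1 had no promoter matched. A match was found for Hspa1a, Hspa1b, Hsph1, Hspb1, Dnajb4 and Dnaja1. All are matches of letters in a short window, and several genes have more than 1 annotated start. Whether the matches go with the levels was not tested.

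**Figure D1:**
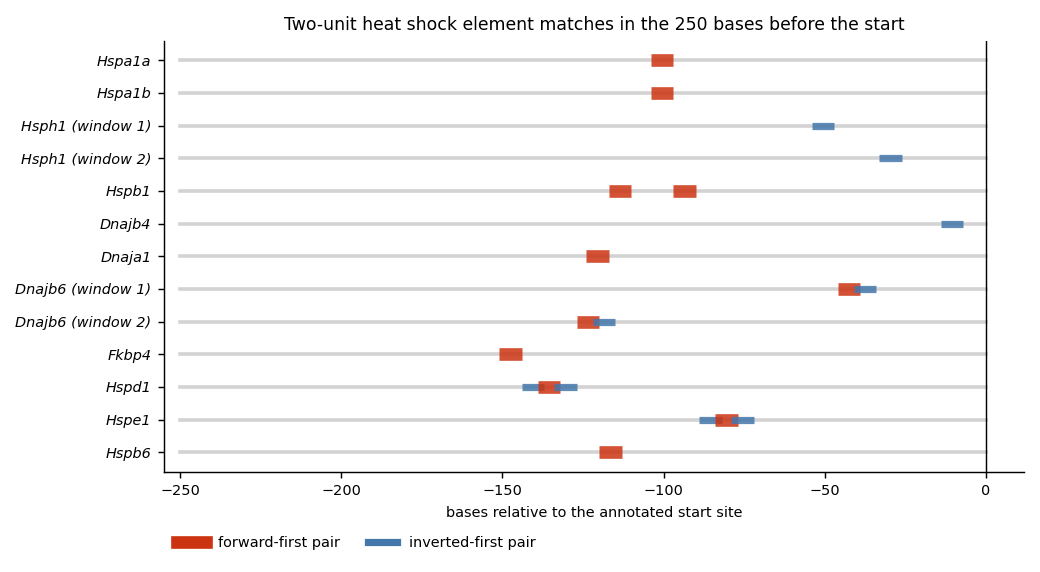
Positions of the paired heat shock element letters in the promoter windows that hold one (grey lines, 250 bases before the annotated start at 0; horizontal axis in bases). Thick red bars are GAANNTTC and thin blue bars TTCNNGAA; Hsph1 and Dnajb6 have 2 annotated starts each, and Hspd1 and Hspe1 share the same array read from opposite strands.

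Library totals ranged from 15513502 to 26588390 counts, and no libraries of a diet matched within sampling noise. Levels are given as CPM, counts relative to library sizes scaled by the trimmed mean of M-values (TMM), because the share of counts from acinar markers, genes of the enzyme-secreting cells around islets, ranged from 9.65% to 51.0%. The summed level of the 10 beta cell markers was 54390 to 75690 CPM on LFD, 77450 to 105400 on HFD and 31050 to 109900 on KD, and between KD and LFD edgeR called none of them, with 1 higher at an unadjusted p below 0.05 that DESeq2 and limma-voom called. The labels give no dates or batches, and an effect of batch cannot be told apart from one of diet. Nothing in the labels says how the libraries of a diet were sampled, so p-values measure only the spread between these samples. In bulk RNA, fewer cells of a type and less RNA per cell cannot be told apart.

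Most stress-inducible genes were lower in islets of KD mice than of LFD mice, by 1.57-fold to 5.57-fold among those that passed. Of the 7 genes placed in the constitutive set, 1 passed the same test. In the edgeR quasi-likelihood fit, with Benjamini-Hochberg adjustment over all 18548 genes and a threshold of 0.05, 11 of the 34 genes fell and 0 rose between LFD and KD, where 4.12% of all genes tested passed, 3.14% lower and 0.981% higher. The 11 were 9 of 13 inducible genes, 1 of 7 constitutive genes (Dnaja1) and 1 of 5 other family members (Hspa4l). DESeq2 called the same 11 with Cacybp and Hspd1 lower and Hspb6 higher, where it called 9.57% of all genes, and limma-voom called 11 lower, with 10.1% of all genes. In edgeR no gene of the co-chaperone, mitochondrial or heat shock factor sets passed. These are sets by assignment, and Chordc1, also a co-chaperone of Hsp90, was placed in the inducible set and passed. The median log2 fold change was -1.20 over the inducible genes, -0.05 over the constitutive, -0.53 over the co-chaperones, -0.47 over the mitochondrial and 0.17 over the other family genes, against -0.02 over all genes. At an unadjusted p below 0.05 there were 18 lower and 2 higher, where 11.9% of all genes were lower and 10.8% higher. The KD and LFD libraries did not overlap for 17 genes that were lower and 1 that was higher on KD, where 10.1% and 9.69% of all genes did the same (19.7% in either direction). The count of 11 depended on single libraries: omitting LFD replicate 1 left 7 calls, LFD replicate 2 left 6, KD replicate 1 left 7, KD replicate 2 left 5 and KD replicate 3 left 5. Over all genes the same omissions took the 764 calls to 177, 224, 378, 199 and 151. Omitting HFD replicate 1 or 2 left 9 of the 34, with 538 or 536 of all genes. Other omissions raised the calls over all genes: without LFD replicate 3 there were 929, with 8 of the 34, and without KD replicate 4 1348, with 12. Hspa1a, Hspa1b, Hspb1, Hsp90aa1 and Dnaja1 were called under the omission of each of the 9 libraries in turn.

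**Figure D2:**
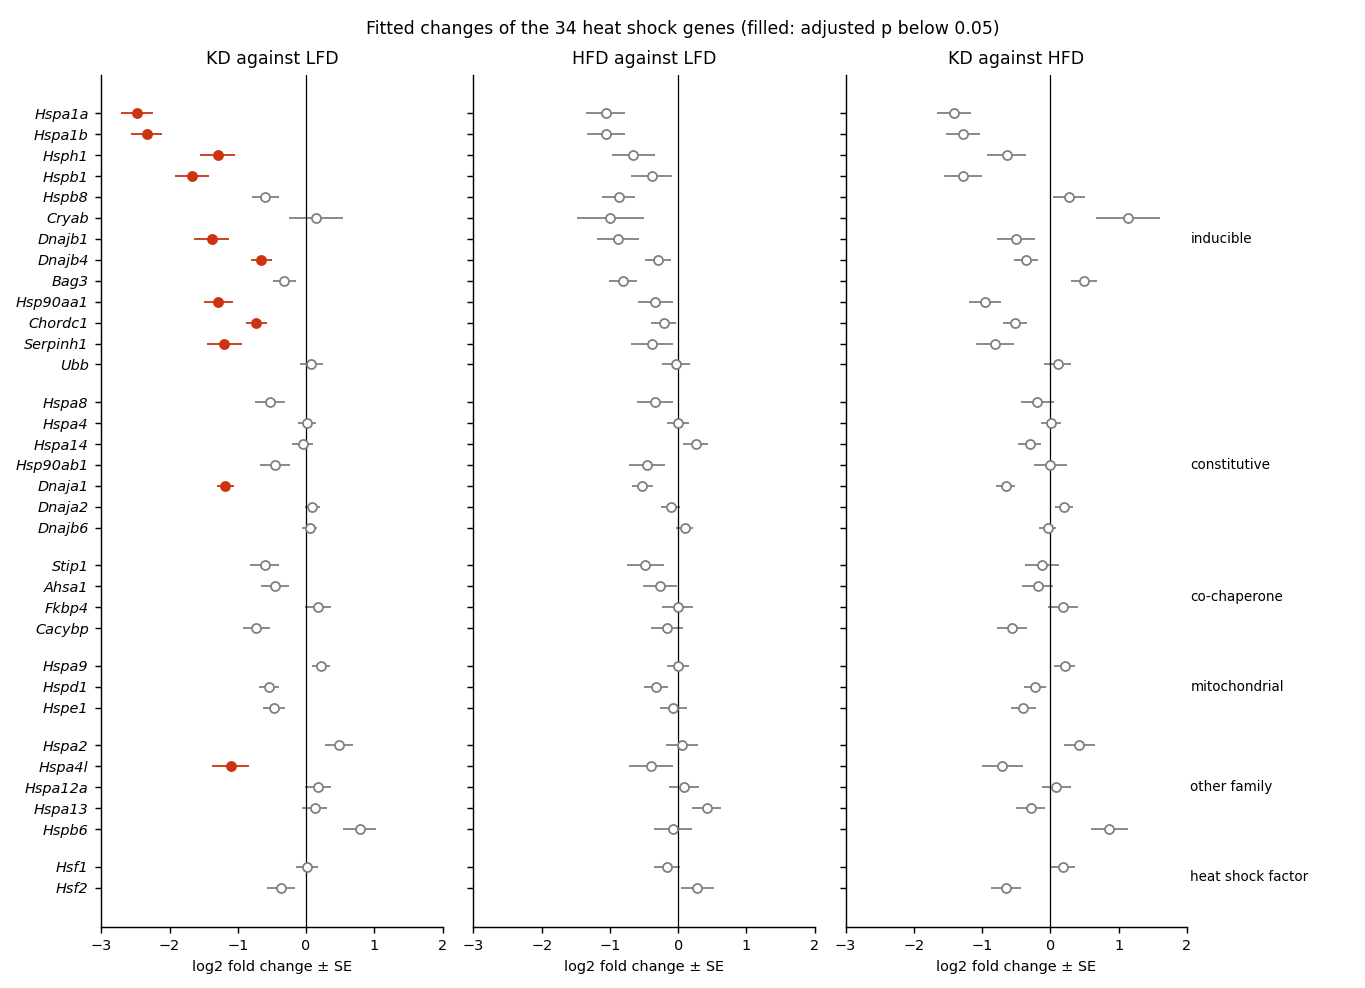
Fitted log2 fold changes ± SE of the 34 genes in the 3 comparisons of diets, grouped by set; filled red points passed the adjusted threshold of 0.05. The 11 filled points are all in KD against LFD and below 0, and 9 of them are inducible genes.

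The inducible Hsp70 genes had the largest fold changes of the 34 between LFD and KD. Hspa1a (ENSMUSG00000091971) encodes a cytosolic Hsp70 that is scarce in unstressed cells, and its level was 117, 148 and 209 CPM on LFD, 62.98 and 88.1 on HFD, and 34.9, 33.3, 22.4 and 22.7 on KD, in replicate order. Hspa1b (ENSMUSG00000090877), its near-identical neighbour, was at 165, 208 and 308 CPM on LFD, 87.4 and 131 on HFD, and 51.4, 50.5, 42.04 and 36.4 on KD. For both genes every LFD library was above every HFD library, and every HFD library above every KD library. Means for Hspa1a were 158 ± 46.9 (SD, n = 3) on LFD, 75.5 ± 17.8 (SD, n = 2) on HFD and 28.3 ± 6.69 (SD, n = 4) on KD. Between LFD and KD it was 5.57-fold lower, with a log2 fold change of -2.48 (SE 0.23, adjusted p = 0.00158). That of Hspa1b was -2.33 (SE 0.23, adjusted p = 0.00158), or 5.04-fold lower. How reads shared by the 2 copies were counted is not stated, so their split is uncertain. Hspa1a held 53.4 to 72.1 counts per 100 of Hspa1b over the 9 libraries, and the summed pair had a log2 fold change of -2.39 (adjusted p = 0.00168).

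Hsph1, an Hsp110 chaperone that resets Hsp70 by nucleotide exchange, was at 211, 344 and 528 CPM on LFD, 188 and 269.9 on HFD, and 132, 153, 141 and 160.5 on KD. LFD replicate 3 was the highest library, and the 4 KD libraries lay below all others. Its log2 fold change between LFD and KD was -1.30 (SE 0.26, adjusted p = 0.0232), and the adjusted p was above 0.05 without LFD replicate 2 (0.0642) and without KD replicate 1 (0.0552), 2 (0.0679) or 3 (0.0753). Dnajb1, the inducible Hsp40 partner that hands clients to Hsp70, was at 67.02, 97.4 and 164 CPM on LFD, 54.5 and 64.3 on HFD, and 40.1, 45.4, 34.5 and 47.4 on KD. The diets did not overlap, in the order LFD, HFD, KD, and the KD against LFD value was -1.39 (SE 0.25, adjusted p = 0.018), with an adjusted p of 0.0517 or 0.0597 when KD replicate 2 or 3 was left out. Dnajb4, another Hsp40, was at 32.9, 33.3 and 44.7 CPM on LFD, 31.97 and 28.2 on HFD, and 19.5, 25.97, 22.2 and 26.2 on KD, again without overlap in that order. Its value of -0.65 (SE 0.16, adjusted p = 0.0412) was close to the threshold, and its adjusted p was between 0.0631 and 0.113 under 8 of the 9 single omissions, all but that of KD replicate 4 (0.0327).

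Hsp90aa1 (ENSMUSG00000021270) encodes the inducible cytosolic Hsp90, which folds kinases and steroid receptors, and was at 381, 515 and 618 CPM on LFD, 359 and 439.8 on HFD, and 157, 213, 188 and 267 on KD. All KD libraries were below the others, and the LFD and HFD ranges overlapped. It was 2.44-fold lower on KD than on LFD, -1.29 (SE 0.21, adjusted p = 0.012). Chordc1, an Hsp90 co-chaperone induced by heat, was at 64.4, 67.2 and 85.03 CPM on LFD, 56.9 and 67.8 on HFD, and 36.6, 45.7, 39.8 and 51.8 on KD. Here too the KD libraries were the 4 lowest, and the change was -0.73 (SE 0.15, adjusted p = 0.0272). The adjusted p of Chordc1 was 0.0560 to 0.0862 without any 1 of the 3 LFD libraries or KD replicates 1, 2 or 3.

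Among the small heat shock proteins, which hold unfolded clients without using ATP, the genes differed from each other. Hspb1 (ENSMUSG00000004951) was at 40.96, 52.9 and 52.1 CPM on LFD, 22.3 and 51.9 on HFD, and 18.1, 16.97, 13.4 and 12.6 on KD. Its HFD libraries stood apart from each other, 1 inside the LFD range and 1 below it, and all KD libraries were lower still. The KD against LFD change was -1.67 (SE 0.25, adjusted p = 0.00985), 3.19-fold lower. Hspb8, which works with Bag3 in clearing damaged proteins, was at 14.9, 19.9 and 22.8 CPM on LFD, 8.304 and 12.7 on HFD, and 11.98, 12.5, 14.96 and 11.3 on KD, with KD replicate 3 just inside the LFD range, and did not pass at -0.60 (SE 0.20, adjusted p = 0.107). Bag3 itself was at 36.4, 42.9 and 49.4 CPM on LFD, 23.3 and 25.5 on HFD, and 37.4, 30.2, 42.6 and 27.6 on KD. Its HFD libraries were the 2 lowest of the 9 and its KD and LFD ranges overlapped, with a value of -0.32 (SE 0.17, adjusted p = 0.28). Cryab, the alphaB-crystallin gene best known from lens and muscle, was at 15.9, 18.5 and 11.4 CPM on LFD, 6.45 and 8.88 on HFD, and 26.8, 14.6, 20.3 and 6.36 on KD. Its KD libraries covered a range wider than all the others together, and the KD against LFD value was 0.14 (SE 0.39, adjusted p = 0.866). Its highest levels were in KD replicates 1 and 3, the libraries with the largest acinar share, whose part was not tested.

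Serpinh1, the collagen chaperone of the endoplasmic reticulum, was at 71.6, 82.3 and 47.5 CPM on LFD, 35.97 and 66.5 on HFD, and 35.8, 32.3, 20.8 and 27.9 on KD. KD and LFD did not overlap and the change was -1.20 (SE 0.25, adjusted p = 0.0298), with an adjusted p of 0.106 or 0.0932 when LFD replicate 1 or 2 was left out and 0.0703 or 0.0803 when KD replicate 2 or 3 was. The 8 markers of fibroblasts and stellate cells, the collagen-making cells that depend on Serpinh1, all had fold changes below 0, with 0 called and a summed level of 270.4 to 562.1 CPM on LFD, 297.6 to 315 on HFD and 126.4 to 331.2 on KD. At an unadjusted p below 0.05, 6 of the 8 were lower on KD, and DESeq2 called 4. Their part in the Serpinh1 value was not tested. Ubb, a polyubiquitin gene that heat also induces, was at 173, 230.3 and 222 CPM on LFD, 179 and 229 on HFD, and 194, 228, 189.7 and 266 on KD. The diets overlapped throughout, with a value of 0.07 (SE 0.17, adjusted p = 0.834).

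**Figure D3:**
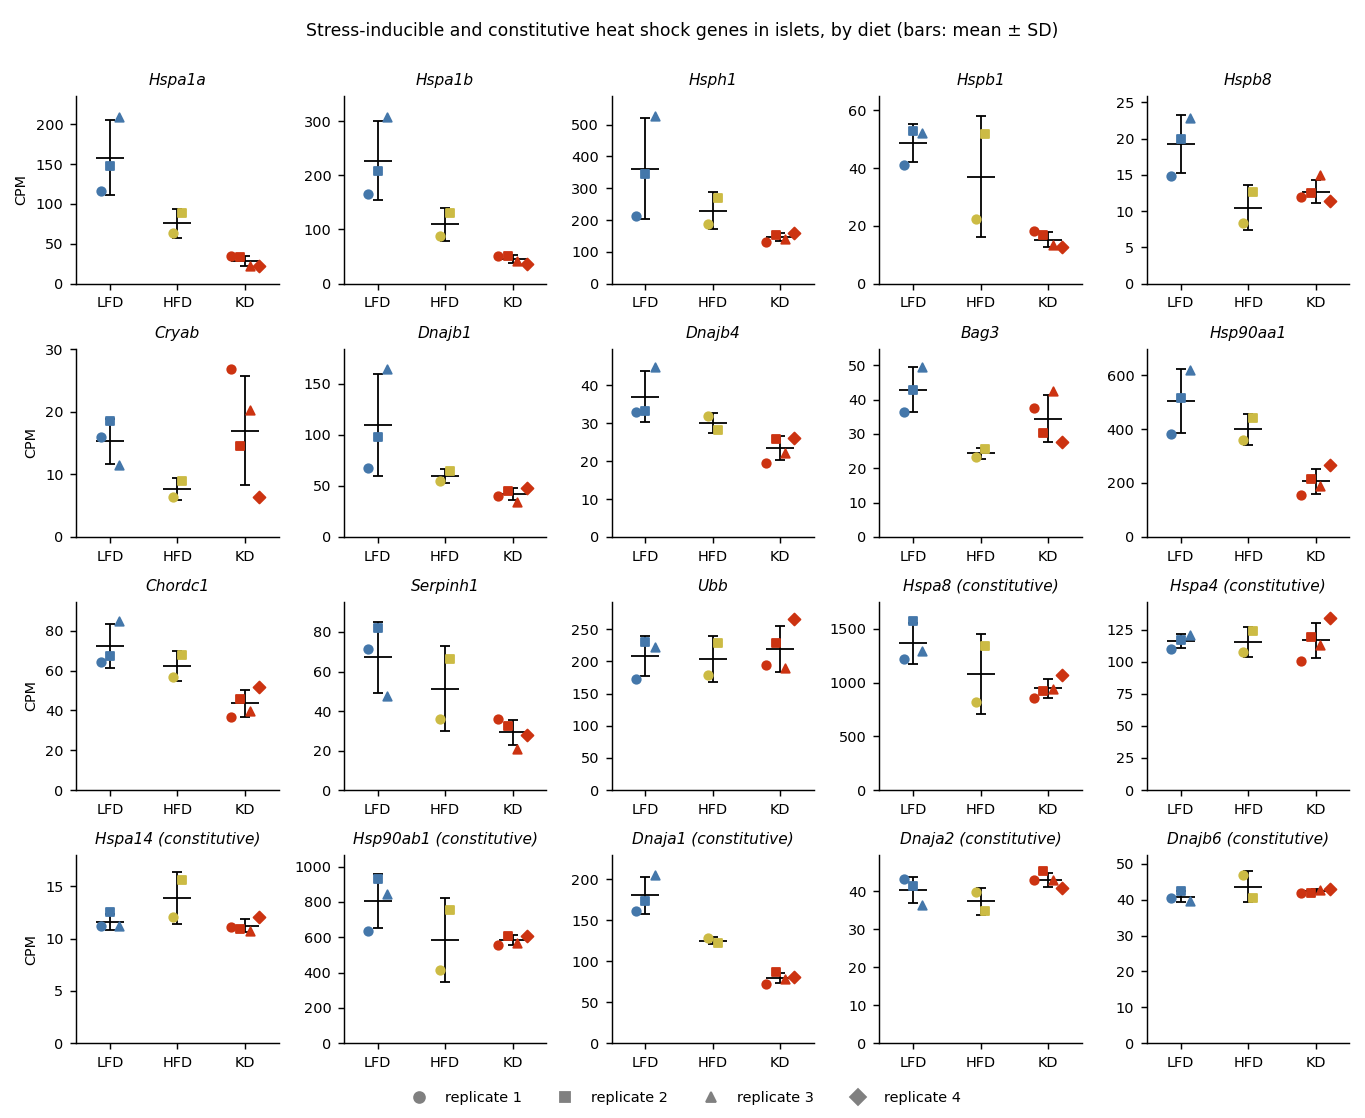
CPM of the 13 inducible and 7 constitutive genes (linear axes from 0) in each library, by diet; symbols mark the replicate and bars the mean ± SD (n = 3 LFD, 2 HFD, 4 KD). Hspa1a, Hspa1b, Dnajb1, Dnajb4 and Dnaja1 step down from LFD to HFD to KD without overlap, and the LFD and KD libraries of Hspa4, Dnaja2, Dnajb6 and Ubb overlap.

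In the constitutive set 1 gene passed between LFD and KD. Dnaja1 (ENSMUSG00000028410), an Hsp40 partner of Hspa8, was at 161, 174 and 206 CPM on LFD, 128 and 122 on HFD, and 71.8, 86.4, 78.4 and 80.3 on KD. The 3 diets did not overlap, in the order LFD, HFD, KD, and the change between LFD and KD was -1.18 (SE 0.13, adjusted p = 0.00211), 2.27-fold lower. Its mean was 180 ± 23 (SD, n = 3) on LFD, 125 ± 4.33 (SD, n = 2) on HFD and 79.2 ± 6.02 (SD, n = 4) on KD. Its relative Dnaja2, with a like role, was at 43.3, 41.3 and 36.4 CPM on LFD, 39.9 and 34.9 on HFD, and 42.9, 45.3, 43.02 and 40.9 on KD, and its value was 0.09 (SE 0.12, adjusted p = 0.671). Dnajb6, which keeps aggregation-prone proteins in solution, was at 40.4, 42.4 and 39.7 CPM on LFD, 46.8 and 40.5 on HFD, and 41.9, 41.9, 42.8 and 42.97 on KD. The whole range of Dnajb6 over the 9 libraries was 39.7 to 46.8 CPM, and its window holds the longer array printed above. Its KD against LFD value was 0.05 (SE 0.11, adjusted p = 0.81).

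Hspa8, the constitutive Hsp70 of the cytosol, was at 1217, 1577 and 1297 CPM on LFD, 819.6 and 1343 on HFD, and 857, 921, 944 and 1066 on KD. All KD libraries were below all LFD libraries, but the difference did not pass, -0.53 (SE 0.22, adjusted p = 0.181). Hsp90ab1, the constitutive Hsp90, was at 634, 930.2 and 844 CPM on LFD, 416 and 752 on HFD, and 557, 609, 567 and 607 on KD, likewise with no overlap between KD and LFD and a value of -0.46 (SE 0.22, adjusted p = 0.237). HFD replicate 1 had the lowest level of both genes. Hspa4, an Hsp110 made at all times, was at 110.2, 117 and 121 CPM on LFD, 107 and 124 on HFD, and 101, 119, 113 and 134 on KD, and Hspa14, a ribosome-associated Hsp70, was at 11.2, 12.5 and 11.2 CPM on LFD, 12.1 and 15.6 on HFD, and 11.1, 10.96, 10.7 and 12.1 on KD. Their KD and LFD ranges overlapped, with log2 fold changes of 0.01 (SE 0.13) and -0.05 (SE 0.15).

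Within-library ratios of raw counts set a gene with lower levels on KD beside a relative, and do not depend on library scaling. All but Dnaja1 over Dnaja2, and Hspd1 over Hspa9 of the mitochondrial set, put an inducible gene beside a constitutive one. Such a ratio compares libraries, not the abundance of the 2 genes, whose transcripts differ in length. Hspa1a and Hspa1b together had 23.2, 22.6 and 39.9 counts per 100 of Hspa8 on LFD, 18.4 and 16.3 on HFD, and 10.1, 9.10, 6.83 and 5.54 on KD. The 3 diets did not overlap, and the LFD mean of 28.5 ± 9.81 (SD, n = 3) was 3.62 times the KD mean of 7.88 ± 2.07 (SD, n = 4). For Hsp90aa1 the ratio per 100 Hsp90ab1 counts was 60.2, 55.4 and 73.2 on LFD, 86.1 and 58.5 on HFD, and 28.2, 35.0, 33.2 and 43.9 on KD. Here the HFD libraries were not below LFD, and only the KD libraries stood apart. Hsph1 per 100 Hspa4 counts was 191.7, 294.3 and 435.7 on LFD, 175.1 and 217.7 on HFD, and 131.4, 128.8, 125 and 119.7 on KD. Dnajb1 per 100 Dnajb6 counts averaged 269.4 ± 128 (SD, n = 3) on LFD, 137.6 ± 29.8 (SD, n = 2) on HFD and 98.7 ± 13.7 (SD, n = 4) on KD. Dnaja1 per 100 Dnaja2 counts averaged 452 ± 100 (SD, n = 3), 334.5 ± 20.4 (SD, n = 2) and 184.3 ± 12.7 (SD, n = 4) in the same order. In each of these ratios the KD libraries were the 4 lowest.

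**Figure D4:**
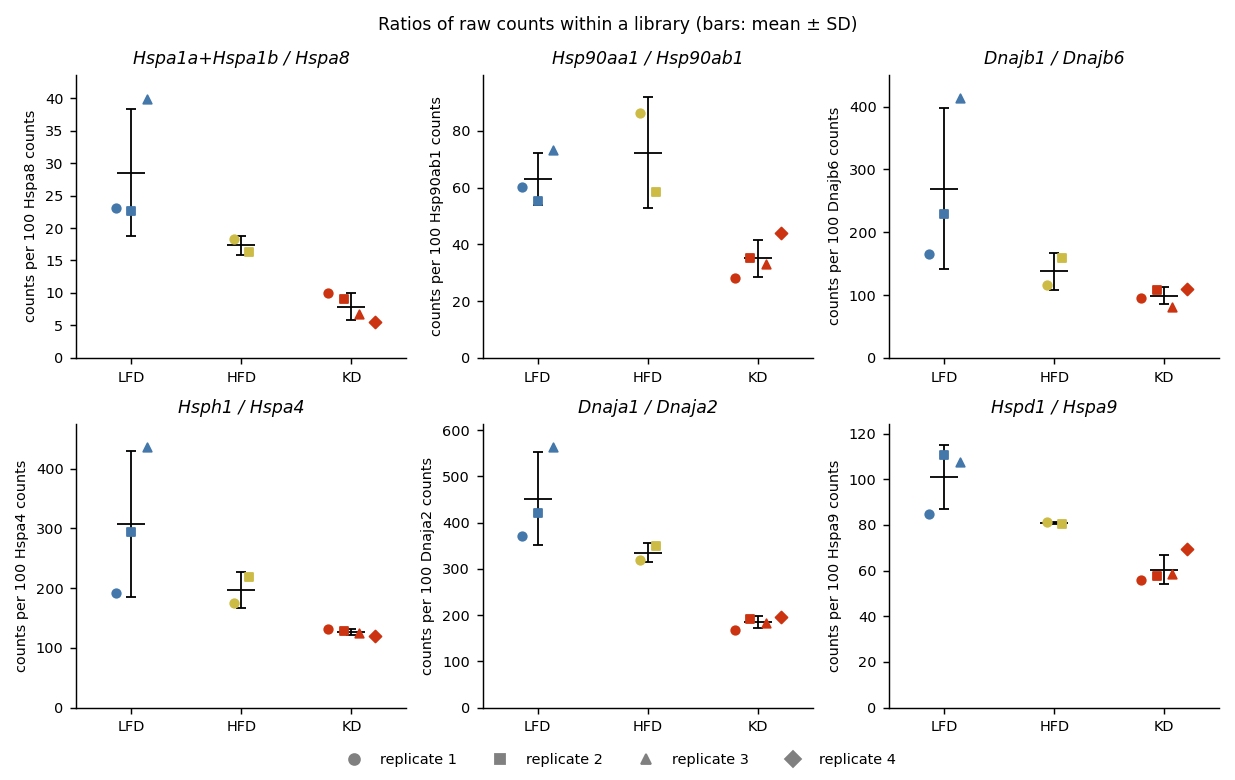
Raw counts of 1 gene per 100 counts of a related gene in the same library, by diet (linear axes from 0; symbols mark the replicate, bars the mean ± SD; n = 3 LFD, 2 HFD, 4 KD). In all 6 panels the KD libraries lie below every LFD and HFD library, and for Hspa1a plus Hspa1b over Hspa8 they lie between 5.54 and 10.1.

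A single value per library, the mean log2 CPM of the 13 inducible genes minus that of the 7 constitutive genes, was -0.72, -0.57 and -0.31 on LFD, -1.08 and -0.87 on HFD, and -1.15, -1.23, -1.33 and -1.45 on KD. The diets did not overlap, and LFD replicate 3 was the highest and KD replicate 4 the lowest. The KD mean was 0.76 below that of LFD on the log2 scale and the HFD mean 0.44 below it, 2 differences that share the LFD libraries. No test is given for this value, since the genes were listed with results known. The inducible mean alone was 6.13 to 6.64 log2 CPM on LFD, 5.58 and 6.03 on HFD, and 5.28 to 5.45 on KD. The constitutive mean was 6.85 to 7.03, 6.66 and 6.90, and 6.57 to 6.73 in the same order. In both means every KD library was below every LFD library.

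**Figure D5:**
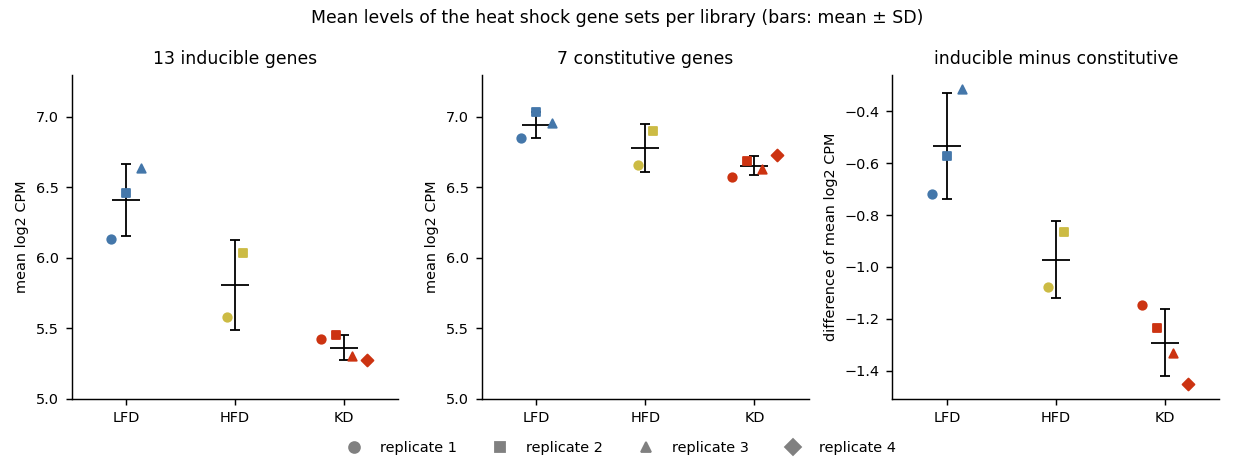
Mean log2 CPM of the 13 inducible genes, of the 7 constitutive genes and their difference in each library, by diet (symbols mark the replicate, bars the mean ± SD; n = 3 LFD, 2 HFD, 4 KD; log2 axes that do not start at 0). The inducible mean lies between 5.28 and 5.45 in KD libraries and between 6.13 and 6.64 in LFD libraries. The constitutive mean lies between 6.57 and 6.73 in KD libraries and between 6.85 and 7.03 in LFD libraries.

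Other lists also held genes that were lower on KD than on LFD. Immediate-early genes, such as Fos, Egr1 and Atf3, are transcribed within minutes of a stimulus, and 13 of 17 were called lower on KD than on LFD. Their mean log2 CPM was 6.06, 6.05 and 5.16 on LFD, 4.49 and 4.70 on HFD, and 4.54, 4.18, 4.17 and 4.15 on KD. LFD replicate 3 had the lowest immediate-early mean of its diet and the highest inducible heat shock mean. All 9 lymphocyte markers were called lower on KD, with a summed level of 39.4 to 176.5 CPM on LFD, 16.4 and 21.9 on HFD and 3.56 to 8.02 on KD. In the KD libraries 2 to 7 of those 9 genes had no counts. LFD replicate 3 was also the lowest of its diet in these markers. The 8 duct markers were mixed between LFD and KD, with 6 fold changes below 0 and 2 above, up to a log2 value of 1.02. Of them 3 were called lower on KD (Krt19, Spp1 and Cftr), 5 by limma-voom. Their summed level was 575.8 to 774.1 CPM on LFD, 388.2 and 418.3 on HFD and 448.1 to 667.6 on KD. On HFD none of them was called against LFD, 7 of 8 lay below without overlap, 6 were lower at an unadjusted p below 0.05, and DESeq2 called 5 and limma-voom 0. Macrophage markers were below 0 between LFD and KD for 8 of 8, with 1 called (Lyz2), 4 lower at an unadjusted p below 0.05, and a summed level of 69.3 to 121.7 CPM on LFD, 85.7 and 115.2 on HFD and 35.8 to 69.1 on KD. Beyond a fit that took the lymphocyte score in as a term, the part of these lists in the heat shock values was not tested. That score, a mean log2 CPM, was 1.14 to 3.66 on LFD, -0.80 and -0.58 on HFD and -2.38 to -1.58 on KD. It did not overlap between diets, so the fit cannot tell its part from that of diet. Between KD and LFD that fit called 0 genes of any kind and gave -2.96 for Hspa1a (adjusted p = 0.252) and -1.54 for Dnaja1 (adjusted p = 0.272).

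The acinar markers took 12.7% to 29.9% of counts on LFD, 9.65% and 16.3% on HFD and 17.2% to 51.0% on KD, with 11 of 12 above 0 between LFD and KD and 0 called. At an unadjusted p below 0.05, 8 were higher and 1 lower, and DESeq2 called 5 higher and 1 lower. KD replicate 4, at 17.2%, lay within the LFD range. Its inducible mean log2 CPM of 5.28 was the lowest of all libraries, while its summed inducible level of 963.2 CPM was the highest on KD. In replicate order, acinar shares of 29.9%, 21.1% and 12.7% stood beside inducible means of 6.13, 6.46 and 6.64 on LFD. On HFD, 16.3% and 9.65% stood beside 5.58 and 6.03. On KD, 51.0%, 37.6%, 47.4% and 17.2% stood beside 5.42, 5.45, 5.30 and 5.28. With an acinar score as a covariate, 7 of the 11 genes were called: Hspa1a, Hspa1b, Hspb1, Dnajb1, Hsp90aa1, Chordc1 and Dnaja1. That fit called 7.56% of all genes, and the other 4 had -1.20 for Serpinh1 (adjusted p = 0.0559), -0.89 for Hsph1 (0.0537), -0.49 for Dnajb4 (0.0747) and -0.64 for Hspa4l (0.0557). With KD replicates 1 and 3, the libraries with most acinar RNA, both left out, the fold changes of Hspa1a (-2.49), Hspa1b (-2.38) and Dnaja1 (-1.11) passed, and no other did, where 64 of all genes passed. The other 8 kept their sign, with -1.72 for Hspb1, -1.24 for Dnajb1, -1.20 for Hsph1, -1.16 for Serpinh1, -1.07 for Hsp90aa1, -0.84 for Hspa4l, -0.57 for Chordc1 and -0.50 for Dnajb4.

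The genes of the co-chaperone set were less separated. Stip1, which bridges Hsp70 and Hsp90, was at 65.05, 109 and 110 CPM on LFD, 49.1 and 86.8 on HFD, and 58.6, 60.05, 59.1 and 70.8 on KD, and LFD replicate 1 lay within the KD range. Ahsa1, an activator of the Hsp90 ATPase, was at 54.9, 73.3 and 73.8 CPM on LFD, 37.7 and 74 on HFD, and 43.6, 51.3, 47.6 and 53.5 on KD. Cacybp, an adaptor of ubiquitin ligases, was at 37.3, 43.2 and 60.6 CPM on LFD, 39.2 and 44.5 on HFD, and 22.1, 31.2, 24.2 and 35.5 on KD. For Ahsa1 and Cacybp the KD libraries were all below the LFD libraries. None passed in edgeR between LFD and KD, while DESeq2 called Cacybp and limma-voom none, with -0.61 (SE 0.22, adjusted p = 0.132) for Stip1, -0.46 (SE 0.20, adjusted p = 0.211) for Ahsa1 and -0.73 (SE 0.20, adjusted p = 0.062) for Cacybp. Fkbp4, an immunophilin of steroid receptor complexes, ranged from 107.8 to 204.3 CPM over the 9 libraries, and both ends of that range were HFD libraries.

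In the mitochondrial set, the matrix chaperonin Hspd1 was at 124, 173 and 169 CPM on LFD, 112 and 136 on HFD, and 102, 106, 113 and 104 on KD. Its lid Hspe1, from the shared promoter printed above, was at 17.1, 23.9 and 19.1 CPM on LFD, 19.8 and 18.4 on HFD, and 11.9, 14.4, 15.7 and 15.9 on KD. KD and LFD did not overlap for either gene. In edgeR the differences did not pass, and DESeq2 called Hspd1 but not Hspe1, at -0.54 (SE 0.14, adjusted p = 0.0565) for Hspd1 and -0.47 (SE 0.16, adjusted p = 0.119) for Hspe1. Hspa9, the mitochondrial Hsp70 that pulls in imported proteins, ranged from 138.6 to 193.6 CPM, with a value of 0.22 (SE 0.14, adjusted p = 0.368). As raw counts, Hspd1 per 100 of Hspa9 was 84.8, 110.8 and 107.4 on LFD, 81.2 and 80.6 on HFD, and 55.7, 57.8, 58.3 and 69.6 on KD, without overlap between any diets.

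Of the other family members, Hspa4l, an Hsp110 relative abundant in testis, was at 86.6, 104 and 174 CPM on LFD, 73.1 and 110.5 on HFD, and 39.8, 65.7, 49.96 and 69.9 on KD. Every KD library was below every LFD library, LFD replicate 3 was the highest, and the change passed narrowly at -1.11 (SE 0.27, adjusted p = 0.0452). Its adjusted p was 0.0573 to 0.123 under 8 of the 9 single omissions and 0.0340 without KD replicate 4. Hspb6, a small heat shock protein abundant in muscle, was at 4.54, 4.93 and 4.46 CPM on LFD, 4.302 and 4.48 on HFD, and 9.57, 6.06, 10.2 and 6.32 on KD. It was the 1 gene of the 34 whose KD libraries were all above the LFD libraries, with KD replicates 1 and 3 again the highest, and its value of 0.78 (SE 0.24, adjusted p = 0.0881) did not pass in edgeR but did in DESeq2. Smooth muscle markers had fold changes below 0 for 7 of 7 genes, with 0 called, 2 lower at an unadjusted p below 0.05 and 1 by DESeq2. Hspa2, an Hsp70 best known from spermatocytes, was at 13.4, 14.8 and 9.47 CPM on LFD, 14.1 and 12.1 on HFD, and 13.7, 20.4, 15.6 and 20.2 on KD, with overlapping diets and a value of 0.48 (SE 0.20, adjusted p = 0.191). Hspa12a and Hspa13 ranged from 16.3 to 27.5 and from 95.6 to 165.7 CPM.

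For the heat shock factors themselves no difference passed. Hsf1 was at 25.4, 27.9 and 23.2 CPM on LFD, 22.1 and 23.5 on HFD, and 33.1, 20.9, 25.6 and 23.8 on KD, and Hsf2 at 19.5, 20.7 and 34.9 CPM on LFD, 33.5 and 27.3 on HFD, and 17.4, 19.5, 18.3 and 22.2 on KD. All the diets overlapped for Hsf1, with KD replicate 1 the highest, and for Hsf2 KD and LFD overlapped while both HFD libraries were above every KD library. The KD against LFD values were 0.02 (SE 0.16, adjusted p = 0.965) for Hsf1 and -0.37 (SE 0.20, adjusted p = 0.299) for Hsf2. Hsf1 is controlled mainly after translation, so its transcript level is not a measure of its activity.

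Between HFD and LFD, all 13 inducible genes had a fold change below 0, where 50.2% of all genes did, with a median of -0.66, and the constitutive set had a median of -0.11. None of the 34 passed in the edgeR quasi-likelihood fit, where 0% of all genes did. At an unadjusted p below 0.05, 6 of the 34 were lower and 0 higher, where 6.44% and 3.55% of all genes were (9.99% in either direction). DESeq2 called 4 (Hspa1a, Hspa1b, Bag3 and Dnaja1), where it called 1.45% of all genes, and limma-voom called 0, with 0.0593% of all genes. The libraries did not overlap for 8 genes that were lower and 1, Hspa13, that was higher on HFD, where 14.1% and 13.4% of all genes did the same. Hspa1a had a log2 fold change of -1.06 (SE 0.28, adjusted p = 0.277) and Hspa1b of -1.06 (SE 0.27, adjusted p = 0.257). The partners Bag3 and Hspb8 had -0.81 (SE 0.21, adjusted p = 0.257) and -0.87 (SE 0.24, adjusted p = 0.3), each larger in size than its own KD against LFD value. The KD against HFD values, which test those differences, were 0.49 (SE 0.19, adjusted p = 0.171) and 0.27 (SE 0.23, adjusted p = 0.507). Immediate-early genes were also lower on HFD at an unadjusted p below 0.05 for 14 of 17, with 0 called, 11 by DESeq2 and 4 by limma-voom, as were 9 of 9 lymphocyte markers, with 0 called, 7 by DESeq2 and 0 by limma-voom, and their part was not tested.

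Between KD and HFD, again 0 of the 34 passed in edgeR, where 0% of all genes did. At an unadjusted p below 0.05, 12 were lower and 3 higher on KD, where 10.6% and 12.1% of all genes were. DESeq2 called 5 lower and 1 higher, with 9.92% of all genes called, and limma-voom called 0. Without KD replicate 4 edgeR called 7, and 9.84% of all genes. Hspa1a, Hspa1b, Hspb1, Hsp90aa1, Chordc1 and Dnaja1 were lower on KD, and Cryab was higher. The libraries did not overlap for 15 genes lower and 3 higher on KD, where 18.2% and 15.7% of all genes did the same. The lowest adjusted p among the 34 was 0.124, shared by Hspa1a (-1.41, SE 0.25), Hspa1b (-1.28, SE 0.25), Hspb1 (-1.28, SE 0.28), Hsp90aa1 (-0.95, SE 0.24) and Dnaja1 (-0.65, SE 0.14). The value of Hspb1 was -0.54 without HFD replicate 2 and -1.76 without HFD replicate 1. The 3 higher were Cryab (1.14, SE 0.47), Bag3 (0.49, SE 0.19) and Hspb6 (0.86, SE 0.27). Since both KD comparisons use the same KD libraries, and both comparisons with LFD the same LFD libraries, their values are given side by side and not as agreement. Over all 3 diets, 5 of the 34 genes (14.7%) had every LFD library above every HFD library and every HFD library above every KD library. They were Hspa1a, Hspa1b, Dnajb1, Dnajb4 and Dnaja1, and 0.911% of all genes tested had this order.

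Divided by the length of all annotated exons (GENCODE M21), the levels of the genes on LFD ranked Hspa8 highest at 317 CPM per kb, then Hsp90ab1 at 268, Hsp90aa1 at 128, Ubb at 124 and Hspa1b at 81.0. On KD the constitutive Hspa8 (220.2 CPM per kb) and Hsp90ab1 (195) kept the top ranks, while Hspa1b moved from rank 5 to rank 12 at 16.1 and Hspa1a from rank 8, at 53.2, to rank 22, at 9.55. Hsp90aa1 went from rank 3 to rank 5 at 52.5. Ranks near each other, such as Hsp90aa1 and Ubb on LFD, differ by less than the spread between libraries. These lengths join all transcripts of a gene, so genes that use a short transcript are underestimated.

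Another 58 chaperone and proteostasis genes were examined beside the 34, of which 57 passed the filter. None was called in edgeR between KD and LFD, where 3 were lower and 7 higher at an unadjusted p below 0.05, DESeq2 called 1 lower and 1 higher, and limma-voom 0 lower and 2 higher. None was called between HFD and LFD (unadjusted, 3 lower and 2 higher; 0 by DESeq2 and 0 by limma-voom) or between KD and HFD (unadjusted, 1 lower and 8 higher; 2 by DESeq2, 0 by limma-voom). The cytosolic chaperonin and prefoldin list of 14 had a median of -0.03 between LFD and KD, and the 18 Hsp70 partners had 0.15, the 9 Hsp90 partners 0.03, the 8 mitochondrial genes 0.31 and the 8 tested genes of a list of other stress-inducible genes 0.01. The 3 genes with the lowest p were Hmox1, Stub1 and Dnaja3. Hmox1, the stress-inducible heme oxygenase, was at 4.11, 9.72 and 7.74 CPM on LFD, 3.85 and 5.28 on HFD, and 3.03, 4.14, 2.67 and 3.36 on KD, and its KD and LFD ranges overlapped, -1.11 (SE 0.30, adjusted p = 0.06). Stub1, a ubiquitin ligase that takes clients from Hsp70, was at 26.4, 28.5 and 22.5 CPM on LFD, 28.2 and 28.5 on HFD, and 37.4, 30.9, 35.5 and 38.9 on KD. Dnaja3, a mitochondrial Hsp40, was at 32.2, 37.4 and 27.1 CPM on LFD, 28.96 and 45.8 on HFD, and 49.8, 46.8, 47.02 and 42.1 on KD. For both, every KD library was above every LFD library, and neither passed, at 0.47 (SE 0.13, adjusted p = 0.0721) and 0.52 (SE 0.17, adjusted p = 0.103). Leaving out LFD replicate 1 gave 1 called gene on this list between KD and LFD, with 0.97% of all genes. Without KD replicate 4 there were 2 between KD and HFD, with 9.84% of all genes.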

How the data were processed

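Polyadenylated RNA from 9 islet samples was sequenced after Trizol and chloroform extraction in strand-specific NEBNext Ultra II Directional libraries, per the labels' protocols. The authors deposited raw gene counts, 1 column per sample, which were used as deposited. The submitters' processing notes name cutadapt 1.16, STAR 2.7.9a, featureCounts 1.6.3, DESeq2 1.40.2 and the builds GRCm39 and mm39. The strand setting and the treatment of reads shared between genes are not given in the sources used here. Of 56941 identifiers, 51948 matched a symbol and 4993 did not.

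Counts were filtered with filterByExpr, scaled by TMM and fitted in edgeR 4.0.16 (R 4.3.3) with a robust quasi-likelihood model of all 9 libraries and a mean per diet, which pools the spread over the small groups. Tests were two-sided and Benjamini-Hochberg adjusted over the 18548 genes tested. An SE is the log2 fold change over the square root of F. Log2 CPM used a prior count of 2. The procedure was tested on simulated counts with 200 changed genes per comparison. A 2-fold change was recovered for 54% of genes between KD and LFD, 26% between HFD and LFD and 35% between KD and HFD. For a 4-fold change the shares were 92%, 78% and 83% in the same order, and 7, 13 and 12 unchanged genes were called. A gene that did not pass can therefore still differ, most of all in the comparisons with HFD. The alternatives were DESeq2 1.42.0, limma-voom (limma 3.58.1) with quality weights, DESeq2 size factors, TMM without acinar and hormone genes, no filter, a filter of 5 CPM in 3 libraries, acinar or lymphocyte covariates, the 2 diets alone, a replicate block, Hspa1a and Hspa1b summed, and each library left out, and for the inducible minus constitutive difference also a prior count of 0.5 and Dnaja1 moved to the inducible set. Leaving out KD replicates 1 and 3 together was added after seeing the data.

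The genes, sets, marker lists and pathway lists were chosen with earlier results of these data known. Values in every library are printed for the inducible and constitutive sets, for genes with an unadjusted p below 0.05 in any comparison and for both heat shock factors, and for the others a range. Of the pathway lists, genes past the threshold were to be named, or else the 3 with the lowest p between KD and LFD. Motif matches were searched in the 250 bases before each RefSeq start. Precision rests on the spread between libraries, not on counting error.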

Additional observations from a re-analysis of the deposited data

Results flagged for a closer look

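Among the 4 KD libraries, replicate 4 stood apart from the others in Stip1, with a log2 CPM of 6.15 (70.8 CPM), where KD replicates 1 to 3 were at 58.6, 60.1 and 59.1 CPM. Its gap to the nearest of the others was 0.869 of the range of the 4, above Dixon's 95% critical value for 4 samples. It was 1 of 35 values examined in this way, the 34 genes and the inducible minus constitutive difference, and chance alone picks out about 1 in 20 groups. The level remained inside the LFD range of 65.05 to 110 CPM.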

How the results depend on the processing

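The 11 genes called between KD and LFD, with 4.12% of all genes, became 7 with an acinar covariate (7.56% of all genes). They became 0 with a lymphocyte covariate (0%) and 3 with KD replicates 1 and 3 both left out (0.351%). With 1 library left out at a time they ranged from 5 to 12, where 0.822% to 7.4% of all genes were called. Other settings gave 9 to 15, with 3.12% to 10.8% of all genes. With the lymphocyte covariate Serpinh1 changed sign to 0.50 (adjusted p = 0.757). The lymphocyte score did not overlap between diets, so that fit cannot tell its part from that of diet. Between HFD and LFD, DESeq2 called 4 genes in place of 0, with 1.45% of all genes, and the single omissions called 0, with 0% to 1.06%. Between KD and HFD, the 0 called became 4 without a low-count filter (1.02% of all genes), 6 by DESeq2 (9.92%) and 0 to 7 under single omissions (0% to 9.84%). On the pathway lists between KD and LFD, 0 became 1 without a filter (3.42% of all genes) and 1 with an acinar covariate (7.56%). There 2 were called by DESeq2 (9.57%), 2 by limma-voom (10.1%) and 0 to 1 under single omissions (0.822% to 7.4%). For these lists between KD and HFD, 2 were called by DESeq2 (9.92%) and 0 to 2 under single omissions (0% to 9.84%). The cause of these differences was not tested. The inducible minus constitutive difference kept its sign under every setting run, from -0.85 to -0.65 between KD and LFD, -0.54 to -0.33 between HFD and LFD and -0.42 to -0.21 between KD and HFD under single omissions. No scaling moved the median of all genes by as much as 0.1. With 2 HFD libraries the comparisons with HFD are the least precise.

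Whether replicate numbers pair the samples cannot be decided from so few libraries. Deviations of KD and LFD libraries of the same number correlated at 0.222, -0.016 and -0.003. Of the KD libraries, replicate 1 correlated best with its own number, and replicates 2 and 3 did not. With 2 HFD libraries the deviations mirror each other by construction, so pairs with HFD cannot decide it either. With the replicate number as a block, 15 of the 34 genes were called between KD and LFD, 11 between KD and HFD and 0 between HFD and LFD, where 10.8%, 12.5% and 2.13% of all genes were, with 2 and 3 pathway genes in the first 2 of these. KD replicate 4 has no partner in that fit.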
